A study of Mus musculus with 6 samples.

Results

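The acute-phase and chitinase-like secreted proteins examined here were 7 genes (*Saa3*, *Hp*, *Chil3*, *Chil1*, *Slpi*, *Wfdc17* and *Wfdc21*) of 19449 genes in the single-cell table. They were chosen by name, and *Saa3* and *Chil1* were selected on their higher levels in microglia of older recipients in these same libraries. The age difference of those 2 genes in microglia is thus a description without a test. Other clusters come from the same libraries, so tests of the 2 genes there are not independent of that choice. Leukocytes (CD45+ cells) had been sorted from the spinal cord of mice with adoptive transfer experimental autoimmune encephalomyelitis (EAE), a model of multiple sclerosis in which myelin-reactive CD4+ T cells, polarized with IL-23, are injected into naive recipients. All recipients received such cells, and they were young (8 to 12 weeks old) or middle-aged (40 to 44 weeks old), sampled on day 6 or day 10 posttransfer. Each of the 4 single-cell libraries was pooled from 4 spinal cords, with 1 library per age and day, so no mouse-to-mouse spread could be measured. A further 2 bulk libraries held microglia of unmanipulated young and middle-aged mice, 1 library each.

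The 4 libraries held 8315 young and 10026 middle-aged cells of day 6, and 9843 and 9873 cells of day 10, with 57337626 to 69859331 unique molecular identifiers (UMIs, tags that count each captured transcript once) per library. Pairs of libraries shared 13 to 36 cell barcodes. Of the 16 deposited clusters, numbers 0, 3 and 6 were neutrophil-like by their markers, 1 and 5 monocyte/macrophage-like, 8 and 10 microglia-like, 7 dendritic cell-like, 4 B cell-like and 9 NK cell-like, with T cells in cluster 2. *Chil1* was itself one of the 10 genes that led cluster 0, and *Wfdc21* one of those that led cluster 6, which makes the high levels there a description of the clusters.

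Acute-phase proteins are secreted in large amounts during inflammation, classically by the liver in response to IL-6 and IL-1, while some members are made by leukocytes at the site of injury. Chitinase-like proteins keep the fold of chitinases but have lost the enzyme activity, and they are released by activated macrophages and neutrophils, including in inflamed nervous tissue. Proteins with a whey acidic protein (WAP) domain include inhibitors of neutrophil serine proteases.

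In the GRCm38 build (GENCODE vM21), all 7 are protein-coding genes. *Saa3* lies on chromosome 7 from 46711998 to 46715700 (minus strand), *Hp* on chromosome 8 from 109575128 to 109579172 (minus) and *Slpi* on chromosome 2 from 164354070 to 164389095 (minus). *Chil1* lies on chromosome 1 from 134182176 to 134190181 (plus) and *Chil3* on chromosome 3 from 106147554 to 106167564 (minus). *Wfdc17* (83703991 to 83706268, plus) and *Wfdc21* (83746940 to 83752642, plus) are neighbours on chromosome 11. Of the 31-base words in the transcripts of *Chil3*, 41.5% also occurred in transcripts of other genes, 28.9% in its near copy *Chil4*. *Chil4* had at most 12 UMIs in any of the 7 myeloid clusters, but how reads of shared sequence were assigned makes the *Chil3* level uncertain to that extent. *Chil1*, *Slpi*, *Wfdc17* and *Wfdc21* shared no such word, *Hp* shared 0.254% and *Saa3* 7.44%.

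Bases upstream of the RefSeq start are shown for *Saa3*, which rose with age in 3 clusters, and *Chil3*, which was higher on day 10 in each of the 7 myeloid clusters. For *Saa3* they are the 126 bases at chr7:46715701-46715826 (minus strand) and for *Chil3* the 150 bases at chr3:106167565-106167714 (minus strand), both in GRCm38 and clear of any annotated transcript of the gene, read 5′ to 3′ with motif matches in capitals.
Saa3: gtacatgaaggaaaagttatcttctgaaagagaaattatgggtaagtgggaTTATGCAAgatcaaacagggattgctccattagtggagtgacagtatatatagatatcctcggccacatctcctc
Chil3: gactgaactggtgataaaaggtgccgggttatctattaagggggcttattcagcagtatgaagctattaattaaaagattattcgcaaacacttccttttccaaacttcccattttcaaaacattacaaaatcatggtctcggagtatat
The letters searched on both strands were TTGCNNAA (C/EBP), TTCNNNGAA (STAT), GGANNNTCC (kB) and TGANTCA (AP-1), factors known to act on acute-phase genes. The capitals in *Saa3* mark a C/EBP match on the opposite strand at bases -99 to -92, counted from the RefSeq start, and no letters of *Chil3* matched. The printed *Saa3* stretch ends short of that start, since the nearest bases lie in an annotated transcript. In the 150 bases upstream of 32851 RefSeq starts the shares with a match were 5.46%, 4.09%, 4.57% and 4.24% in that order. A match is a description of the letters only. *Saa3*, *Chil1*, *Chil3*, *Slpi* and *Wfdc17* (5 of 7 members) had a promoter entry.

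The 7 myeloid clusters held most transcripts of the 7 genes. Shares of UMIs depend on the size of the clusters as well as on the level, so pooled levels are given beside some. Pairs of values give young before middle-aged recipients. Levels are in CPM, the UMIs of a gene per 1e+06 UMIs of the same cluster and library. Of the *Saa3* UMIs, 78.0% lay in the monocyte/macrophage-like clusters, 11.4% in the neutrophil-like clusters and 8.68% in the microglia-like clusters. Its levels pooled over the libraries were 1038, 510 and 703 CPM in that order. *Chil3* had the same leading class, with 76.1% in monocyte/macrophage-like cells. *Chil1* and *Wfdc21* belonged mostly to neutrophil-like cells, which held 79.3% and 65.6% of their UMIs. The UMIs of *Hp* (46.5% and 41.2%), *Slpi* (39.998% and 52.6%) and *Wfdc17* (46.6% and 45.4%) were divided between monocyte/macrophage-like and neutrophil-like cells, in that order. The pooled levels of these 3 genes were not even but higher in the neutrophil-like clusters. *Hp* stood at 529 CPM in the monocyte/macrophage-like and 1577 CPM in the neutrophil-like clusters. In the same order *Slpi* stood at 290 and 1284 CPM and *Wfdc17* at 1323 and 4330 CPM. T, B and NK cells together held 0.318% to 0.503% of the UMIs of any member. Unnamed clusters 11 to 15 held from 1.14% of those of *Saa3* to 17.4% of those of *Wfdc21*.

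**Figure D1:**
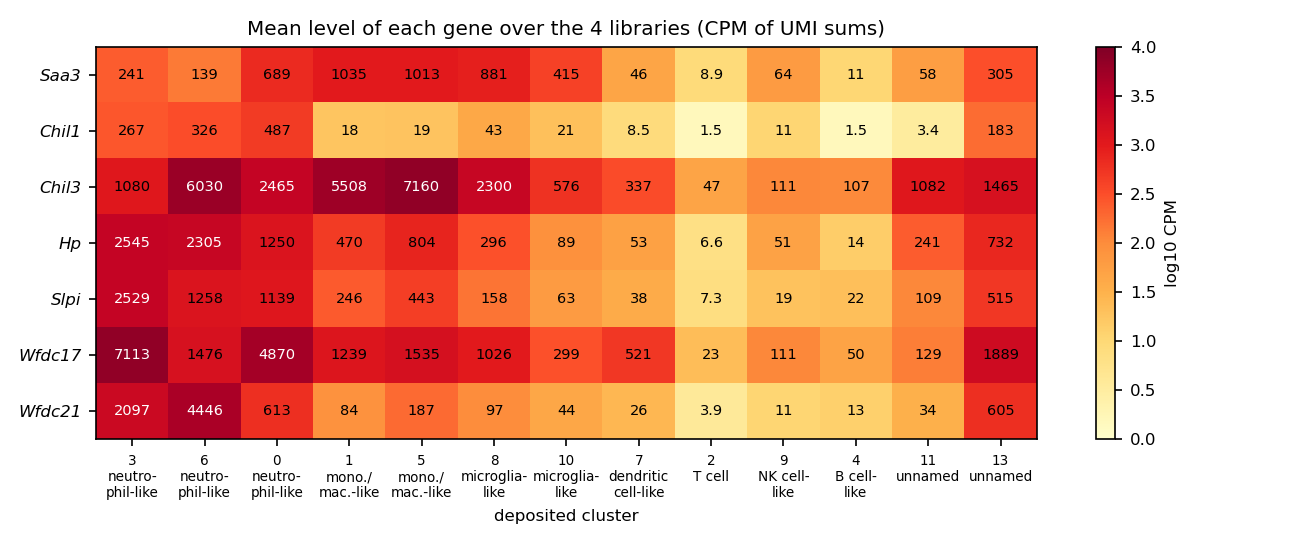
Mean level of each of the 7 genes over the 4 libraries (printed in CPM, color on a log10 scale) in the 13 deposited clusters with at least 20 cells in every library. *Chil1* and *Wfdc21* were highest in the neutrophil-like clusters, *Saa3* in monocyte/macrophage-like cluster 1, and all 7 were low in T and B cells.

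The order of the clusters by mean level is a description, since neighbours overlapped in most cases. For *Saa3*, *Chil3* and *Wfdc17* the ranges over the 4 libraries overlapped in 12 of 12 neighbouring pairs of clusters. For *Hp* they overlapped in 11, for *Slpi* and *Wfdc21* in 10 and for *Chil1* in 9. The lowest *Chil1* level in neutrophil-like clusters 0, 3 and 6 was 206 CPM, and its highest in monocyte/macrophage-like clusters 1 and 5 was 24.1 CPM, while unnamed cluster 13 lay between them at 151 to 201 CPM.

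*Saa3* encodes a serum amyloid A made outside the liver by macrophages and other cells under inflammatory stimulation. *Saa3* was higher in middle-aged than in young recipients in each of the 7 myeloid clusters on both days. For microglia-like clusters 8 and 10 this is the contrast on which the gene was selected. Among the clusters in which age was tested, the log2 effect was largest in neutrophil-like cluster 3, followed by monocyte/macrophage-like cluster 5. Young cluster 5 cells held *Saa3* at 88.3 CPM on day 6 and middle-aged cells at 2104 CPM, and the day 10 levels were 279 and 1582 CPM. The log2 age ratio, middle-aged over young, was 4.57 on day 6 (95% exact interval 4.46 to 4.69) and 2.51 on day 10 (2.42 to 2.59). Here and throughout, intervals of ratios, levels and shares hold the error of counting alone, not that between mice. Both middle-aged libraries lay above both young libraries. The 10 cluster 5 cells richest in *Saa3* held 62.7% and 14.5% of its UMIs on day 6 and 45.8% and 29.7% on day 10. More cells carried the transcript: with each cell thinned to 2000 UMIs, the share with *Saa3* on day 6 was 4.17% in young (Clopper-Pearson 95% limits 2.90 and 5.77) and 52.3% in middle-aged cells (limits 48.3 and 56.2). On day 10 the *Saa3* shares were 15.4% (limits 12.04 and 19.3) and 45.3% (limits 39.96 and 50.8). In T cells, which should lack the gene and so show the free RNA of each library, *Saa3* was found in 0.471% and 1.55% of thinned cells on day 6, and in 2.29% and 3.52% on day 10. Without thinning, the *Saa3* shares of cluster 5 were 7.59%, 64.3%, 30.1% and 60.8% (young and middle-aged day 6, young and middle-aged day 10), and those of T cells 0.995%, 3.61%, 5.93% and 8.61%. Thinning left out at most 2 cluster 5 cells per library. The median depth of cluster 5 was 8538 to 10762 UMIs per cell and that of T cells 4715 to 6225.

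Dendritic cell-like cluster 7 held 1.35 and 107 CPM on day 6 and 14.9 and 61.3 CPM on day 10, and NK cell-like cluster 9 at most 8.72 CPM except for 235 CPM in middle-aged mice on day 10, where 1 cell held 140 of 165 UMIs. In the larger monocyte/macrophage-like cluster 1, *Saa3* stood at 205 and 934 CPM on day 6 and at 1097 and 1904 CPM on day 10. The ranges of the ages overlapped here, since young cells of day 10 were above middle-aged cells of day 6. The log2 ratios were 2.19 (2.14 to 2.23) and 0.79. *Saa3* was detected in 8.20% and 32.6% of thinned cluster 1 cells on day 6 and in 28.03% and 41.5% on day 10.

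Neutrophil-like cluster 0 held *Saa3* at 286 and 431 CPM on day 6 and at 688 and 1353 CPM on day 10, log2 ratios of 0.59 (0.51 to 0.68) and 0.98 (0.92 to 1.04). Its 10 cells richest in *Saa3* held 49.6% and 23.5% of these UMIs on day 6 and 26.4% and 24.1% on day 10. In neutrophil-like cluster 3 *Saa3* stood at 27.2 and 215 CPM on day 6 and at 22.2 and 697 CPM on day 10, log2 ratios of 2.99 and 4.97. The cluster 3 values rested on few cells. In young mice *Saa3* had 15 UMIs in 4 cells on day 6 and 48 UMIs in 29 cells on day 10. The 10 cells richest in *Saa3* held 97.1% of the middle-aged UMIs of day 6 and 92.0% of those of day 10, where cluster 3 had 258 and 172 middle-aged cells. In cluster 6, which had 43 to 515 cells per library, *Saa3* stood at 92.7, 117, 98.3 and 247 CPM (young and middle-aged day 6, young and middle-aged day 10). The day 6 ratio of cluster 6 was 0.34 with an interval that held 0 (-0.29 to 0.96). On day 6, 1 cell held 44 of the 45 young UMIs and 1 cell 40 of the 47 middle-aged UMIs. The 10 richest cells of cluster 6 held 70.0% and 98.9% of the UMIs of day 10.

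**Figure D2:**
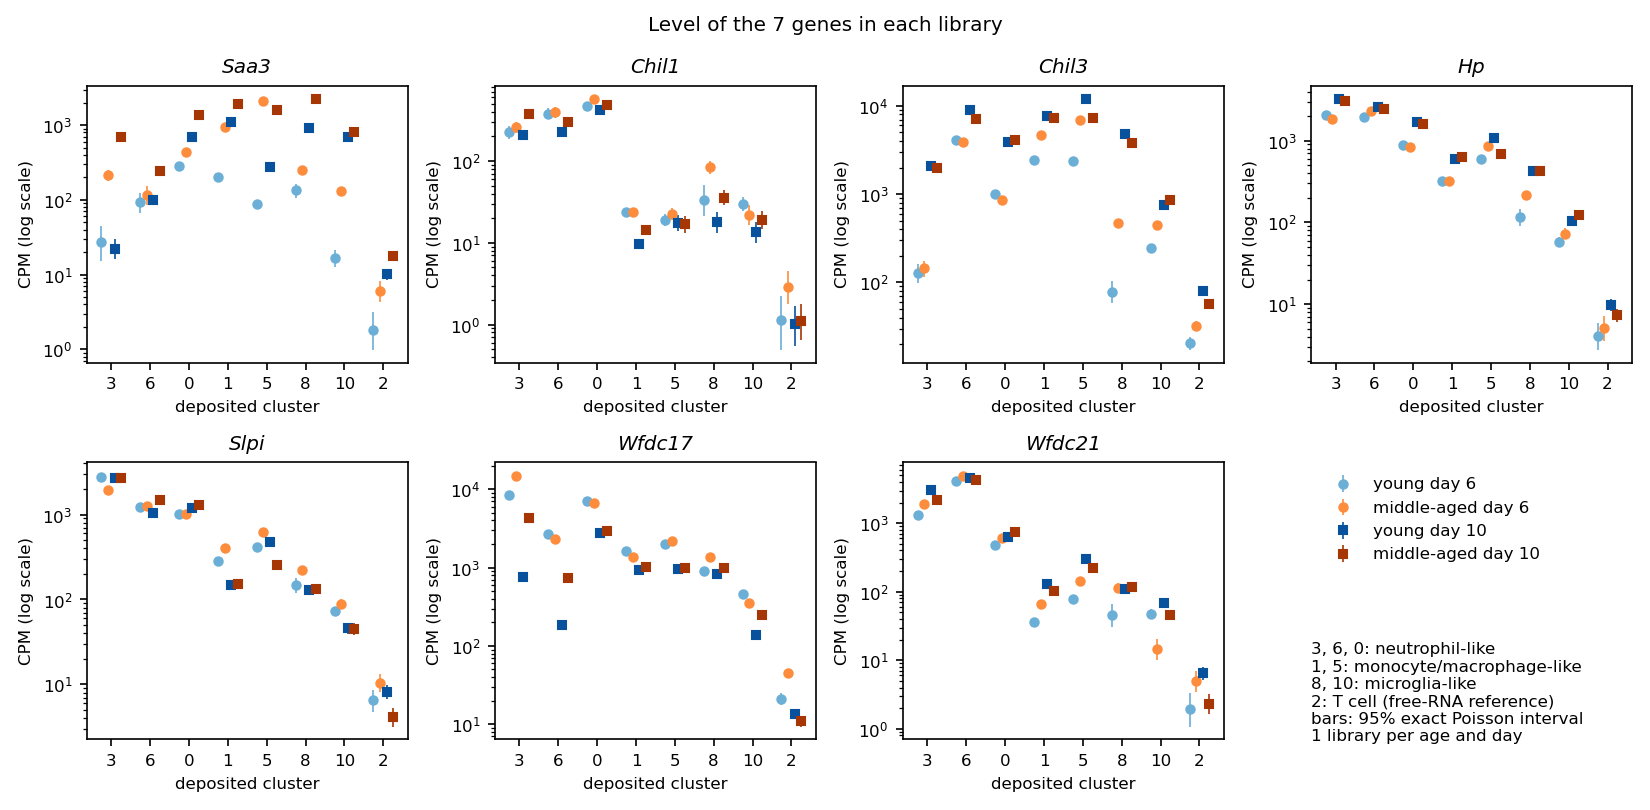
Level of each gene (CPM, log scale, 95% exact Poisson interval) in the 7 myeloid clusters and in T cells, 1 point per library. In cluster 5 the 2 middle-aged points of *Saa3*, at 2104 and 1582 CPM, lie above the young points at 88.3 and 279 CPM, and T cells lie low in all 7 panels.

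Age was tested with the days as blocks, by edgeR's quasi-likelihood test on the 4 library sums of a cluster, with 1 residual degree of freedom and Benjamini-Hochberg adjustment over all genes tested. The clusters come from the same 4 libraries, so they do not repeat one another. Over both days *Saa3* rose with age by 3.57 on the log2 scale in cluster 5 (SE 0.35, edgeR adjusted p = 8.51e-05), by 4.18 in cluster 3 (SE 0.40, edgeR adjusted p = 0.00216) and by 0.84 in cluster 0 (SE 0.13, edgeR adjusted p = 0.022). It did not pass in cluster 1 (1.54, SE 0.30, edgeR adjusted p = 0.122) or cluster 6 (0.94, SE 0.28, edgeR adjusted p = 0.544). *Saa3* thus passed in 3 of the 5 clusters in which it was tested. In each of those clusters it was higher in 2 of 2 middle-aged libraries within the day. The gene was selected on these same libraries, so these tests are not independent of the selection. T cells held *Saa3* at 1.84 and 5.97 CPM on day 6 and at 10.0 and 17.9 CPM on day 10. What differs between whole libraries was not tested. *Wfdc17* rose with age in cluster 3 (1.70, SE 0.32, edgeR adjusted p = 0.0425). No other test of a member passed: 4 of 45 gene-by-cluster tests were called, and 14 of 45 had an unadjusted p under 0.05. Of the 4 calls, 3 were of *Saa3*, so the count is not read as a result about the members.

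The share of all tested genes that edgeR called gives the background of these counts. It was 0.208% in cluster 0, 0.0982% in cluster 1, 0.929% in cluster 3, 0.655% in cluster 5, 0.0202% in cluster 6, 0.0956% in cluster 8 and 0.142% in cluster 10. The calls depended on the fit. With DESeq2, *Saa3* passed in clusters 0 and 3 and *Wfdc17* in cluster 3, while *Saa3* in cluster 5 did not (DESeq2 adjusted p = 0.0513). With RLE size factors, *Saa3* passed in clusters 0 and 5 and neither gene in cluster 3. Without the day block edgeR called no gene in any cluster (14 to 98 genes with an unadjusted p under 0.05), and with 1 library left out the only member calls that remained were *Saa3* and *Wfdc17* in cluster 3 without the young day 6 library.

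With 1 library per age and day, members were also counted by size, as 2-fold or more higher in middle-aged recipients, beside the share of all genes with 100 or more UMIs that passed the same fold. In cluster 5, 2 of 7 members passed on day 6 (*Saa3* and *Chil3*; 1.54% of genes) and 1 of 7 on day 10 (*Saa3*; 0.449%). In cluster 1, 1 of 7 passed on day 6 (*Saa3*; 1.48%) and 0 of 7 on day 10 (0.333%). In cluster 0 no member passed on day 6 (0.318%) or day 10 (0.0622%). In cluster 3, 1 of 7 passed on day 6 (*Saa3*; 2.87%) and 2 of 7 on day 10 (*Saa3* and *Wfdc17*; 6.66%). In cluster 6, 0 of the 6 members with 100 UMIs passed on day 6 (0.313%) and 2 of 7 on day 10 (*Saa3* and *Wfdc17*; 3.16%). The median log2 ratio of the members lay between -0.44 and 0.60 in these 5 clusters, and that of all genes between -0.18 and 0.08. *Saa3* was selected on these libraries, so nothing is read from the counts that hold it.

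**Figure D3:**
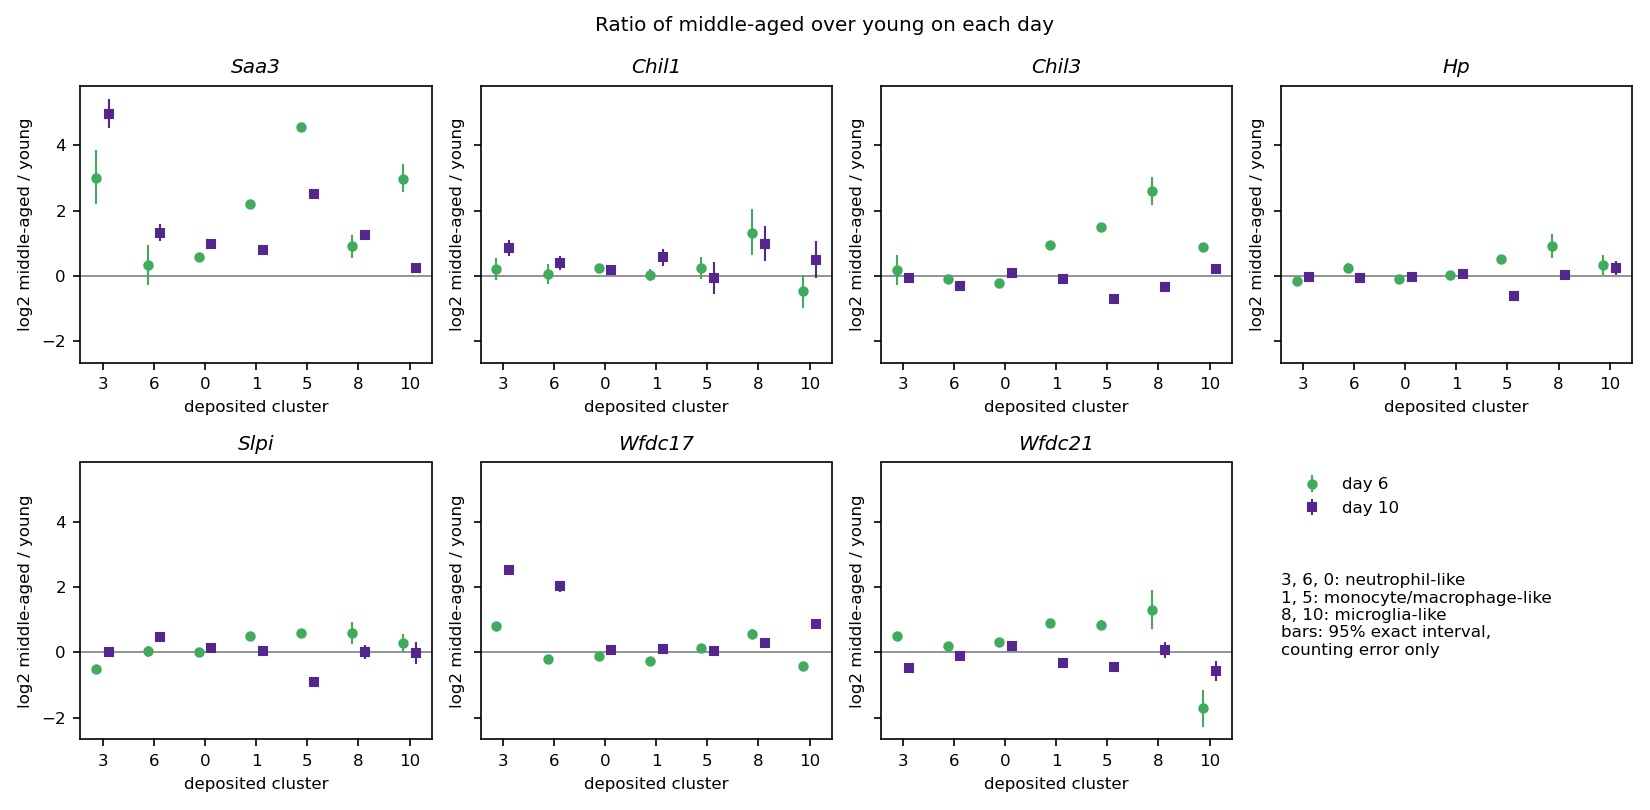
Age ratio of the CPM levels (log2, middle-aged over young) on day 6 (circles) and day 10 (squares) in the 7 myeloid clusters, with 95% exact intervals for counting error. *Saa3* lies above 0 in 14 of 14 comparisons, and *Chil3*, *Hp* and *Slpi* in cluster 5 lie above 0 on day 6 and below 0 on day 10.

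*Hp* encodes haptoglobin, the plasma protein that binds free hemoglobin, which neutrophils also store. In clusters 0 and 1 its level followed the day more than the age. In neutrophil-like cluster 0 it stood at 883 and 830 CPM on day 6 and at 1671 and 1618 CPM on day 10. In cluster 3 it ran from 1827 to 3204 CPM, and in cluster 6 from 1929 to 2561 CPM, and nearly every cell of those clusters carried it, with shares of 85.4% to 99.6% after thinning. In cluster 1 *Hp* stood at 322 and 325 CPM on day 6 and at 606 and 627 CPM on day 10. The log2 ratio of day 10 over day 6 was 0.92 in young and 0.96 in middle-aged cells of cluster 0, and 0.91 and 0.95 in those of cluster 1. In both clusters the day 10 libraries did not overlap with the day 6 libraries. Other clusters differed from this. *Hp* in cluster 5 stood at 601 and 856 CPM on day 6 and 1067 and 692 CPM on day 10. In middle-aged cells of cluster 6 the log2 ratio between the days was 0.08 (-0.04 to 0.20), and the day 6 age ratio 0.25. In microglia-like cluster 8 these 2 ratios were 0.98 and 0.91.

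*Chil3* (also called Ym1), a chitinase-like protein secreted by macrophages and neutrophils, was higher on day 10 than on day 6 in 7 of 7 myeloid clusters at both ages. In cluster 5 it stood at 2403 and 6867 CPM on day 6 and at 11994 and 7374 CPM on day 10. On day 6 the middle-aged library was thus the higher, with a log2 ratio of 1.51 (1.49 to 1.54), and on day 10 the lower, with -0.70 (-0.72 to -0.68). In cluster 1 it stood at 2463 and 4704 CPM on day 6 and at 7663 and 7201 CPM on day 10. The young libraries gained more between the days, with log2 ratios of day 10 over day 6 of 1.64 in cluster 1 and 2.32 in cluster 5, against 0.61 and 0.10 in middle-aged recipients. *Chil3* was detected in 62.6% and 74.5% of thinned cluster 1 cells on day 6 and in 83.9% and 80.2% on day 10.

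The difference between the days was largest among neutrophils in cluster 3. Cluster 3 held *Chil3* at 127 and 144 CPM on day 6 and 2059 and 1990 CPM on day 10, log2 ratios between the days of 4.02 in young and 3.79 in middle-aged recipients. The shares of thinned cluster 3 cells with *Chil3* were 11.1% and 13.4% on day 6 but 81.9% and 68.3% on day 10 (8.94%, 18.2%, 87.0% and 77.9% unthinned). T cells went from 3.84% and 6.94% to 16.7% and 10.6% and B cell-like cells from 4.38% and 8.64% to 22.0% and 14.3%, so the shares in cells that should lack *Chil3* were higher on day 10 too. The *Chil3* level of cluster 3 was many times that of T cells (57.5 to 80.1 CPM on day 10). Cluster 6, led by granule genes such as *Ltf* and *Camp*, held *Chil3* at 4132 and 3887 CPM on day 6 and 8945 and 7158 CPM on day 10. In unnamed cluster 12, led by the granule genes *Camp*, *Fcnb* and *Ngp* and kept for young day 10 only (131 cells, against 4 to 19 in the others), *Chil3* reached 18596 CPM.

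**Figure D4:**
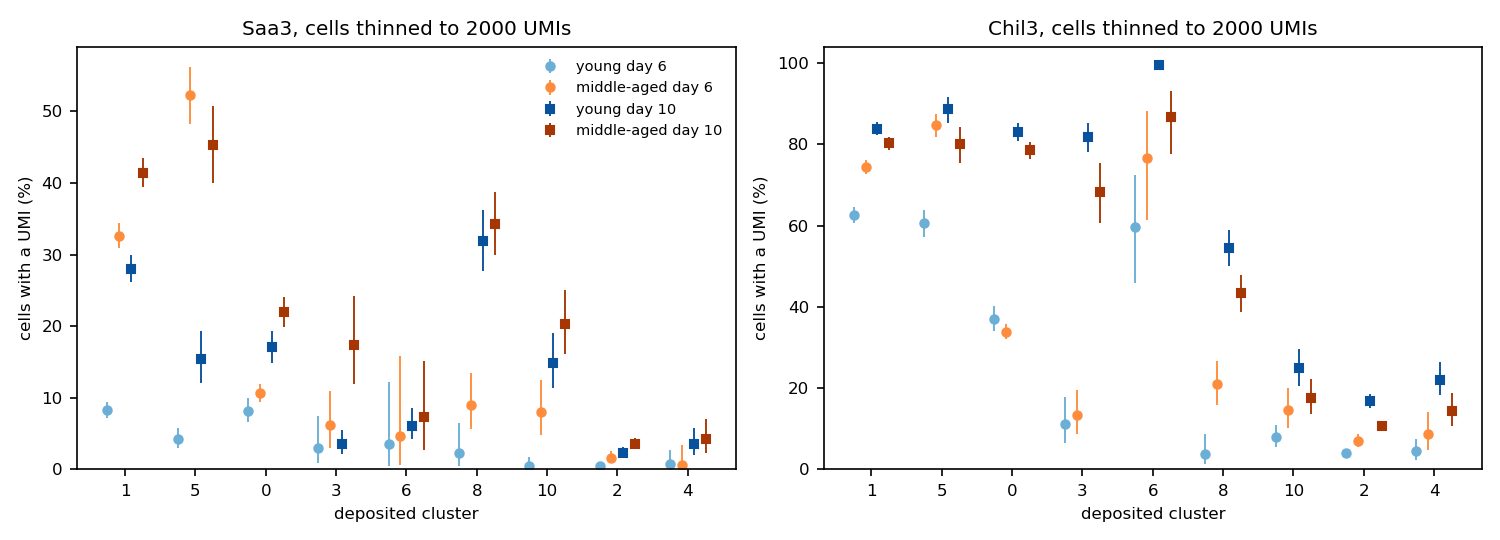
Share of cells (%) with at least 1 UMI of *Saa3* (left) and *Chil3* (right) after thinning each cell to 2000 UMIs, by cluster and library, with Clopper-Pearson 95% intervals. *Saa3* in cluster 5 reaches 52.3% and 45.3% in middle-aged recipients against 4.17% and 15.4% in young, and T (2) and B cell-like (4) clusters show the free-RNA level.

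*Chil1*, the mouse counterpart of the human glycoprotein YKL-40, differed little between ages or days in cluster 0, where its mean level was highest. In cluster 0 it stood at 475 and 567 CPM on day 6 and at 422 and 482 CPM on day 10. In cluster 6 it ran from 227 to 396 CPM and in cluster 3 from 206 to 373 CPM. The log2 age ratios of *Chil1* in the 3 neutrophil-like clusters were 0.05 to 0.86, and edgeR called none of them (adjusted p = 0.639, 0.438 and 1.00 in clusters 0, 3 and 6). *Chil1* was detected in 40.03% to 52.5% of thinned cluster 0 cells and in 0.127% to 0.457% of T cells.

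Among the WAP-domain genes, *Slpi* encodes secretory leukocyte protease inhibitor, which blocks neutrophil elastase and cathepsin G. It was steady in neutrophils, at 1023, 1026, 1193 and 1313 CPM in cluster 0 (young and middle-aged day 6, young and middle-aged day 10) and 1952 to 2774 CPM in cluster 3. In cluster 1 *Slpi* stood at 281 and 401 CPM on day 6 and at 149 and 154 CPM on day 10. Both day 10 libraries lay below both day 6 libraries. In cluster 5 *Slpi* stood at 412 and 626 CPM on day 6 and at 480 and 256 CPM on day 10.

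*Wfdc17*, a small WAP-domain protein of activated macrophages, was lower on day 10 than on day 6 in each of the 7 myeloid clusters at both ages. In cluster 0 it stood at 7154 and 6620 CPM on day 6 and at 2775 and 2930 CPM on day 10. In cluster 3 it stood at 8455 and 14895 CPM on day 6 and at 759 and 4341 CPM on day 10, and in cluster 6 at 2662 and 2316 CPM on day 6 and 183 and 744 CPM on day 10. The ages were close on day 6 in cluster 6, while on day 10 the middle-aged libraries were higher in both of these clusters, with log2 ratios of 2.52 (2.43 to 2.61) in cluster 3 and 2.02 (1.86 to 2.18) in cluster 6. The edgeR test over both days passed for *Wfdc17* in cluster 3 only among the 7 clusters (cluster 6, 0.96, SE 0.35, edgeR adjusted p = 0.999). Shares of thinned cluster 3 cells with *Wfdc17* were 93.3% and, in middle-aged mice, all cells on day 6, and 40.2% (35.9 to 44.8) and 75.8% (68.4 to 82.2) on day 10. The unthinned *Wfdc17* shares were 93.2%, 98.1%, 48.2% and 78.5%, and thinning left out 100, 94, 27 and 11 shallower cells of cluster 3. The summed level of 10 neutrophil markers moved with these groups. It stood at 155659 and 165952 CPM on day 6 in cluster 3 and at 314779 and 213396 CPM on day 10, highest where *Wfdc17* was lowest, and its part in the result was not tested.

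*Wfdc17* in macrophages had the same order of days, with log2 age ratios of -0.26 to 0.12. Cluster 1 held 1628 and 1362 CPM on day 6 and 944 and 1021 CPM on day 10. Cluster 5 held 2008 and 2186 CPM on day 6 and 956 and 990 CPM on day 10. In both, the day 6 libraries lay above the day 10 libraries.

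*Wfdc21*, a WAP-domain gene of granule-rich neutrophils, was highest and most even in cluster 6, at 4179, 4823, 4576 and 4208 CPM. In cluster 3 it stood at 1328 and 1879 CPM on day 6 and at 3027 and 2155 CPM on day 10. Its level in cluster 5 was 78.8 and 142 CPM on day 6, and 304 and 223 CPM on day 10. In T cells *Wfdc21* stayed between 1.98 and 6.42 CPM.

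Cluster 5 showed 3 members in opposite directions on the 2 days (*Chil3*, *Hp* and *Slpi*), each higher in middle-aged recipients on day 6 and lower on day 10. The summed neutrophil markers of cluster 5 stood at 7074 and 5606 CPM on day 6 and at 16333 and 6493 CPM on day 10. The young day 10 library was thus the highest in neutrophil markers, as it was in *Chil3* and *Hp*, whereas *Slpi* was highest in the middle-aged day 6 library. T cell markers in cluster 5 stood at 328 and 438 CPM on day 6 and at 1000.1 and 1411 CPM on day 10. The part of either in these ratios was not tested.

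In the microglia-like clusters the levels of *Saa3* were those the gene was selected on. Cluster 10 held the most microglial markers (summed level of 8 markers 2285 to 4447 CPM). *Saa3* in cluster 10 stood at 16.6 and 131 CPM on day 6 and at 696 and 817 CPM on day 10. The log2 age ratio was 2.98 (2.57 to 3.41) on day 6 and 0.23 (0.15 to 0.31) on day 10. Cluster 8 held 134 and 251 CPM of *Saa3* on day 6 and 930 and 2210 CPM on day 10, log2 ratios of 0.91 and 1.25. *Saa3* in microglia-like cells was thus higher on day 10 than on day 6 at both ages, with log2 ratios of 5.39 and 2.64 in cluster 10.

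*Chil1* was at 30.0 and 21.8 CPM on day 6 and at 13.7 and 19.2 CPM on day 10 in cluster 10, so that the older recipients were the lower on day 6 (log2 ratio -0.46, interval -0.97 to 0.04) and the higher on day 10 (0.49, -0.08 to 1.06). Both intervals held 0. In cluster 8 *Chil1* stood at 33.8 and 83.8 CPM on day 6 and at 18.0 and 35.6 CPM on day 10, log2 ratios of 1.31 and 0.99.

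Fewer cells of the microglia-like clusters carried *Saa3* on day 6 than on day 10. A *Saa3* UMI was found in 8 of 249 and 33 of 364 cluster 8 cells on day 6. On day 10 the counts were 219 of 668 and 293 of 776. Cluster 10 had 12 of 432 and 31 of 216 on day 6, and 92 of 362 and 127 of 334 on day 10. Cells with 3 or more *Saa3* UMIs made up 0.926% and 6.02% of cluster 10 on day 6 (4 and 13 cells) and 12.2% and 19.5% on day 10 (44 and 65 cells), and held 86.0% to 97.6% of its *Saa3* UMIs. In cluster 8 they were 1.61% and 4.67% on day 6 (4 and 17 cells) and 20.1% and 23.7% on day 10 (134 and 184 cells). These cells carried less of the microglial markers than cells with no *Saa3* UMI in each of the 8 combinations of cluster and library, for example 1261 against 4509 CPM in cluster 10 of young mice on day 6. They carried more of 6 monocyte markers in each of the 8 combinations, although on day 10 in young cluster 10 the sums were close (806 against 765 CPM). In cluster 10 of young mice on day 6 their 10 neutrophil markers summed to 47554 CPM, against 3437 CPM in cells without *Saa3*, and their median depth was 19718 UMIs.

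**Figure D5:**
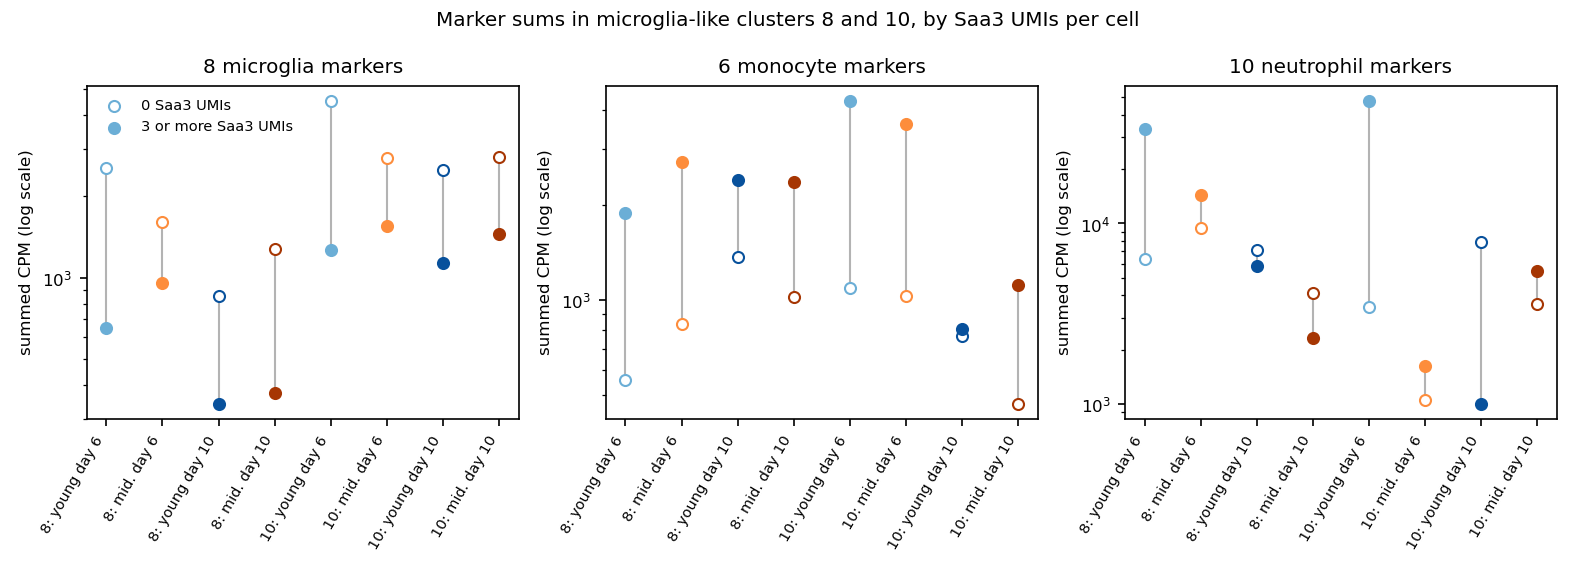
Summed CPM (log scale) of 8 microglia, 6 monocyte and 10 neutrophil markers in microglia-like clusters 8 and 10 by library, in cells with no *Saa3* UMI (open) and with 3 or more (filled). Filled points lie below open points for microglia markers and above them for monocyte markers in 8 of 8 cases, with no single order for neutrophil markers.

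Leaving cells out changed these ratios. Without cells that held 3 or more UMIs of the 6 monocyte markers, an alternative added after the data were seen, the log2 age ratio of *Saa3* in cluster 10 was 3.37 (1.90 to 5.15) on day 6 and -0.98 (-1.10 to -0.85) on day 10, and in cluster 8 it was 3.84 and 0.96. Without cells holding lymphocyte or neutrophil markers, it was 3.64 and 0.07 in cluster 10 and 2.44 and 1.21 in cluster 8. On day 10 the *Saa3* ratio of cluster 10 thus changed sign under the first removal and had an interval that held 0 (-0.03 to 0.17) under the second. There the 10 cells richest in *Saa3* held 82.1% of its UMIs in young and 67.2% in middle-aged mice. A single cell held 702 of 2447 UMIs in young and 420 of 2643 in middle-aged mice. The counting intervals do not hold such spread between cells. As a mean over cells of log2 values, the *Saa3* difference on day 6 was 0.18 in cluster 8 and 0.27 in cluster 10. These values describe the cells on which the gene was selected. The same removals moved *Chil1* in cluster 8 on day 6 from 1.31 to -0.04 (interval -1.53 to 1.57) without lymphocyte or neutrophil marker cells and to 0.79 without monocyte marker cells. Cells with a *Chil1* UMI in cluster 8 had 28108 to 98026 CPM of neutrophil markers, against 1296 to 4684 CPM in cells without one.

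Cluster 8 itself held a different mix on the 2 days. Its 8 microglia markers summed to 2471 and 1553 CPM on day 6 and to 705 and 977 CPM on day 10, while its 8 monocyte/macrophage markers summed to 1180 and 1509 CPM on day 6 and to 10301 and 14028 CPM on day 10. *Chil3* in cluster 8 stood at 78.3 and 475 CPM on day 6 and at 4822 and 3825 CPM on day 10, and so was high where the monocyte/macrophage markers were high. In cluster 10 *Chil3* stood at 242, 449, 744 and 869 CPM. Its shares of thinned cluster 10 cells on day 10, 24.8% in young and 17.6% in middle-aged mice, were near those of B cell-like cells (22.0% and 14.3%), while its levels were above the 141 and 215 CPM of B cell-like cells. Cells with 3 or more UMIs held 93.5% and 96.4% of the *Chil3* UMIs of cluster 10 on day 10, and what free RNA adds to its level was not tested. Members 2-fold or more higher in cluster 8 were 3 of 7 on day 6 (*Saa3* was not among them; *Chil1*, *Chil3* and *Wfdc21* were; 2.2% of genes) and 1 of 7 on day 10 (*Saa3*; 0.172%). In cluster 10 they were 1 of 7 on day 6 (*Saa3*; 1.5%) and 0 of 7 on day 10 (0.313%), and 1 of 7 was 2-fold or more lower on day 6 (*Wfdc21*; 1.42%). The rule used these contrasts for *Saa3* and *Chil1*, so nothing is read from the counts.

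*Wfdc17* in cluster 10 stood at 462 and 348 CPM on day 6 and at 137 and 250 CPM on day 10. *Hp* was at 57.6 to 122 CPM and *Slpi* at 45.1 to 89.0 CPM there, with T cells at 4.09 to 9.81 CPM and 4.14 to 10.49 CPM. *Wfdc21* was at 14.7 to 67.4 CPM, and the 10 cells richest in it held 77.1% to 90.7% of its UMIs. edgeR called none of the 5 members tested in cluster 8 or cluster 10, while 3 of 5 in cluster 8 and 1 of 5 in cluster 10 had an unadjusted p under 0.05, and DESeq2 called none in either. With no filter on low counts edgeR called *Chil3* in cluster 8 (adjusted p = 2.08e-06) and *Wfdc21* in cluster 10 (adjusted p = 0.00187).

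Microglia of unmanipulated mice held little of any member. The bulk libraries had 79373420 and 76293436 counts, and bulk levels are not set beside single-cell levels because the units differ. *Saa3* had 16 counts in the young and 9 in the older library (0.202 and 0.118 CPM), with a log2 ratio of -0.77 whose interval held 0 (-2.13 to 0.49). *Chil1* had 269 and 290 counts (0.17, -0.08 to 0.41), *Wfdc17* 110 and 108, *Wfdc21* 26 and 24, and *Slpi* 5 and 12, and their intervals all held 0. *Chil3* was higher in the middle-aged library, with 1938 and 2347 counts (log2 ratio 0.33, 0.25 to 0.42), as was *Hp* with 201 and 349 (0.85, 0.60 to 1.11). All 10 neutrophil markers were present too. Of these, *S100a8* (35.3 and 44.3 CPM), *S100a9*, *Cxcr2*, *Camp*, *Ngp* (70.3 and 83.9 CPM) and *Ltf* were higher in the middle-aged library and *Retnlg*, *Ly6g*, *Mmp8* and *Mmp9* lower, with intervals that held 0 for *Cxcr2*, *Retnlg*, *Ly6g* and *Mmp8*, beside 3356 and 3430 CPM of the microglial gene *Tmem119*. In such bulk samples, fewer cells of a type and less RNA per cell cannot be told apart. Their part in the *Chil3* and *Hp* values was not tested.

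Among relatives and pathway genes, edgeR called 3 of 246 gene-by-cluster tests over 6 lists, beside the shares of all genes given above, 0.0202% to 0.929% by cluster. The lists were chosen with earlier results of these data known. Of 21 other acute-phase genes 17 were in the table, and the liver serum amyloids were nearly absent, *Saa1* with at most 52 UMIs and *Saa2* with at most 6 in any myeloid cluster. Among the acute-phase relatives edgeR called 1 of 46 gene-by-cluster tests, *Cd14* (a coreceptor for bacterial lipopolysaccharide) in cluster 3, which rose with age by 1.34 (SE 0.27, edgeR adjusted p = 0.0489). The *Cd14* call was lost with RLE size factors (adjusted p = 0.244), without the day block and with any 1 library left out (edgeR adjusted p = 0.095 to 1.0), and held with DESeq2 (adjusted p = 0.0360). *Lcn2*, an iron-sequestering acute-phase protein, stood in cluster 5 at 268 and 469 CPM on day 6 and at 1047 and 390 CPM on day 10, the same order of libraries as *Hp* there. Of 8 other chitinase-family genes at most 2 reached 100 UMIs in a cluster, and of the other WAP genes only *Wfdc18* did so in clusters 0, 1 and 5. None of 14 chitinase-family and 4 WAP-family tests was called.

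Among 20 inducers and regulators (cytokines such as *Il6*, *Osm* and *Il1b*, their receptors, and C/EBP, STAT and NF-kB factors), edgeR called 1 of 107 tests. *Cebpd*, a C/EBP factor of the acute-phase response, fell with age in cluster 5 by 0.94 on the log2 scale (SE 0.18, edgeR adjusted p = 0.0286), from 156 to 90.8 CPM on day 6 and from 210 to 93.4 CPM on day 10. The *Cebpd* call held with RLE size factors and DESeq2 and was lost without the day block and with any 1 library left out. *Cebpd* was thus lower in middle-aged cluster 5 cells, in which *Saa3* was higher, and a link between them was not tested. Of the 17 list genes with 100 or more UMIs in cluster 5, 2 were 2-fold or more higher on day 6 (*Il1a* and *Tnf*) and 0 lower. On day 10, 0 were higher and 3 lower (*Il6*, *Cebpd* and *Cebpe*). Among all genes, 1.54% were higher and 1.01% lower on day 6, and 0.449% and 1.09% on day 10. *Il6* in cluster 5 stood at 68.2 and 49.9 CPM on day 6 and at 43.7 and 15.5 CPM on day 10. None of 56 tests of receptors and targets was called. *Fpr2*, a receptor for serum amyloid A, stood in cluster 5 at 59.5 and 135 CPM on day 6 and at 149 and 109 CPM on day 10. Of the alternative activation genes, with which *Chil3* is often listed, 1 of 19 tests was called: *Ccl24*, an eosinophil-attracting chemokine, rose with age in cluster 1 by 1.82 (SE 0.25, edgeR adjusted p = 0.0135), at 183 and 831 CPM on day 6 and 64.9 and 165 CPM on day 10. The *Ccl24* call was lost with RLE size factors (adjusted p = 0.0901), with no filter on low counts (adjusted p = 0.233), without the day block and with any 1 library left out, and held with DESeq2 (adjusted p = 2.04e-07). *Arg1* (arginase) in cluster 5 stood at 104.2 and 618 CPM on day 6 and at 716 and 935 CPM on day 10. The alternative activation genes had no single direction. Of 4 with 100 or more UMIs in cluster 1, 2 were 2-fold or more higher on day 6 and 2 lower. On day 10, 2 were higher there (*Mrc1* and *Ccl24*) and 0 lower. In cluster 5, 2 of 4 were higher on day 6 (*Arg1* and *Ccl24*) and 0 lower. On day 10, 0 were higher and 1 lower (*Clec10a*). Among all genes in cluster 1, 1.48% were higher and 2.20% lower on day 6, and 0.333% and 0.374% on day 10.

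The genes most like each member were found by Pearson's r of log2(CPM + 10) over 57 cluster-by-library sums among 3639 genes, a description in which sums of 1 library share depth and free RNA. *Saa3* had the weakest likeness, with *Plin2* at 0.81, *Ly6i* at 0.80 and *Fam20c* at 0.80. *Chil1* was nearest to *Mmp9*, *Mirt2* and *Slc40a1* (0.95, 0.95 and 0.94), and *Wfdc21* to *Lcn2*, *Trem3* and *S100a8* (0.97, 0.96 and 0.96). *Chil3* was nearest to *Lyz2*, *Aldh3b1* and *Clec4a2* (0.90, 0.88 and 0.88). *Hp* was nearest to *Pygl*, *Slpi* and *Gsr* (0.95, 0.94 and 0.94), *Slpi* to *Msrb1*, *Trem1* and *Pygl* (0.95, 0.95 and 0.94), and *Wfdc17* to *Tnfaip2*, *Il13ra1* and *Ccr1* (0.95, 0.94 and 0.94). Among the members themselves r ran from 0.41 between *Saa3* and *Chil1* to 0.94 between *Hp* and *Slpi*.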

How the data were processed

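Single-cell RNA-seq counts came from 4 libraries of CD45+ spinal cord cells, and bulk counts from 2 libraries of microglia. Both count tables were deposited as raw counts. The authors made the single-cell counts with Cell Ranger 3.1.0 on mm10 and filtered and clustered the cells in Seurat, and they made the bulk counts with HISAT2 and featureCounts. The deposited clusters were used as given and named from marker lists, no doublet caller was run, and 0 columns were left unused. Members and gene lists were chosen with earlier results of these data known.

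UMIs were summed by cluster and library (sums of 20 or more cells), and ratios had exact conditional binomial 95% intervals. Age was tested with edgeR 4.0.16 (R 4.3.3, quasi-likelihood, age plus day, TMM, genes with 10 or more counts in 2 or more libraries, Benjamini-Hochberg adjusted p under 0.05) and alternatively with DESeq2 1.42.0. Samples of 1 age serve as replicates only across the 2 days. The error of the test is thus the difference of the age effect between the days, with variance shared over genes. No group held a repeat library, so p-values measure no spread between mice or between repeat libraries. The text names all 7 members, list genes with 100 or more UMIs in a cluster, and the 3 genes nearest to each member. Leaving out cells with monocyte markers was an alternative chosen after seeing the data. Python 3.11.15 with scipy 1.17.1 was used, and the scripts were tested on simulated data.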

Additional observations from a re-analysis of the deposited data

Results flagged for a closer look

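The age ratio of 3 members in monocyte/macrophage-like cluster 5 had opposite signs on the 2 days, by at least 0.5 on the log2 scale each. *Chil3* had a log2 ratio of middle-aged over young of 1.51 on day 6 and -0.70 on day 10. *Hp* had 0.51 on day 6 and -0.62 on day 10. *Slpi* had 0.60 on day 6 and -0.91 on day 10. With 1 library per age and day the difference between the days was not tested. The summed neutrophil markers of cluster 5 were highest in the young day 10 library, at 16333 CPM against 5606 to 7074 CPM in the others, and their part in these values was not tested.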

How the results depend on the processing

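Each cluster has 1 pooled library per age and day, so counting intervals leave out the spread between mice. Counts were low for *Saa3* in young cells of cluster 3 on both days. On day 6 they were also low for *Saa3* in cluster 6 and *Chil1* and *Wfdc21* in cluster 8. No paired analysis was possible because each group holds 1 library, so replicate numbers link no libraries. The age test itself compared the ages within each day through its day block.

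The counts of genes called by edgeR in clusters 0, 1, 3, 5, 6, 8 and 10 were 20, 12, 42, 68, 1, 8 and 15. With RLE size factors they were 35, 4, 0, 159 and 0 in clusters 0, 1, 3, 5 and 6, and the split of higher against lower calls went from 8 and 12 to 10 and 25 in cluster 0 and from 6 and 6 to 0 and 4 in cluster 1. With no filter on low counts they were 181, 3, 182, 303, 5, 41 and 53, with *Chil3* in clusters 5 and 8 and *Wfdc21* in cluster 10 added among the members. With DESeq2 they were 5 in cluster 0, 21 in cluster 5, 0 in cluster 6 (35 genes with an unadjusted p under 0.05), 2 in cluster 8 and 5 in cluster 10. Without the day block they were 0 in all 7 clusters (14 to 98 genes with an unadjusted p under 0.05), and *Wfdc17* in cluster 0 turned to -0.0059.

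With 1 library left out, fits had no day term and the lone sample of an age was assumed to vary like the others. The calls were 0 to 3 in cluster 0, 0 to 187 in cluster 3, 0 to 2 in cluster 6, 0 to 1 in cluster 10 and 0 in clusters 1, 5 and 8. The log2 age effect of *Saa3* ranged from 0.34 to 1.24 in cluster 0, 0.44 to 2.77 in cluster 1, 3.34 to 4.64 in cluster 3, 2.91 to 4.31 in cluster 5 and 0.48 to 1.27 in cluster 6. That of *Wfdc17* ranged from -1.30 to 1.42 in cluster 0, -0.42 to 0.46 in cluster 1, -0.26 to 3.85 in cluster 3, -0.79 to 0.95 in cluster 5, -0.99 to 3.18 in cluster 6, 0.37 to 0.53 in cluster 8 and -0.53 to 1.06 in cluster 10. Without the young day 10 library it was -0.70 in cluster 0, -0.38 in cluster 5 and -0.61 in cluster 6.

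TMM-scaled totals shifted all age ratios of a comparison by -0.22 to 0.23, over 0.1 in 6 of 14 comparisons. They reversed *Hp* on day 6 in clusters 0 (0.021) and 3 (0.071) and *Wfdc17* on day 6 in cluster 6 (0.030), and gave 3 members 2-fold or more higher in cluster 1 and 2 in cluster 3 on day 6. The mean over cells of log2 values reversed *Chil3* in clusters 0 (-0.15) and 10 (-0.13) on day 10, *Wfdc17* in cluster 6 (0.51) and cluster 10 (0.29) on day 6 and in cluster 8 (-0.13) on day 10, and *Wfdc21* in cluster 10 on day 6 (0.0031). Without lymphocyte or neutrophil marker cells, *Chil1* (-0.035), *Wfdc17* (-0.59) and *Wfdc21* (-1.69) in cluster 8 and *Slpi* (-0.35) and *Wfdc21* (1.67) in cluster 10 reversed on day 6, and 3 members were 2-fold or more higher in cluster 8 on day 10 and in cluster 10 on both days. Without monocyte marker cells, *Wfdc17* (0.050) and *Wfdc21* (1.44) in cluster 10 reversed on day 6 and *Saa3* (-0.98), *Chil3* (-0.31) and *Wfdc21* (0.49) on day 10, and 3 and 2 members of cluster 10 were 2-fold or more higher on days 6 and 10. The cause was not tested. Keeping cells with 1000 or more UMIs moved none of 98 age ratios beyond its interval, and the 7 bulk ratios kept their direction with TMM-scaled totals and without the noncoding gene *Gm26917*.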
